A study of Arabidopsis thaliana with 4 samples.

Results

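Plates TA21 to TA29 of a tiling array hold a stretch of 785 valued tiles, of 21691 in the whole series, with low log ratios in a chromatin immunoprecipitation of histone H3 trimethylated at lysine 4 (H3K4me3). A tile is a probe of the array, known here only by its ID, which is made of a set (TA), a plate (21 to 29) and a well (row A to H, column 01 to 12). The members are all wells of these 9 plates that have a value, and the plate limits were set from plate medians of the same values. The level of the stretch is therefore a description and is not tested here.

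ChIP-chip was performed on seedlings of Arabidopsis thaliana accession Col-0, the accession of the reference genome, at an age of 10 days. They had been kept for 10 to 11 days in half-strength liquid MS medium at 22 °C with a photoperiod of 16 hours, and they were not treated. Seedlings hold many cell types, and a tile's value is an average over them. The antibody-bound DNA (IP) and the input, which is DNA from the chromatin before precipitation, were amplified and hybridised to the same array, in 2 ChIP replicates called I and II. Each replicate has 2 arrays with the dyes swapped, so that IP carried Cy5 on the first and Cy3 on the second. The series has this single group and no other genotype or treatment, so the stretch is set against the plates on either side, TA12 to TA20 (852 tiles) and TA30 to TA38 (822 tiles), and against all valued probes.

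H3K4me3 is written by methyltransferases of the trithorax group and read by proteins with domains such as the PHD finger. In plants and other eukaryotes it lies around the 5′ ends of transcribed genes, usually as a short peak downstream of the start site. In Arabidopsis it is scarce over silent transposons and heterochromatin, which carry methylated DNA and other histone marks instead. A profile along consecutive tiles therefore usually alternates between short peaks and a low background.

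The values are the log ratios of IP and input in the authors' deposited table. The columns of a dye-swap pair were identical for all 21691 probes, which left 1 value per replicate and n = 2 for each tile. Nothing in the labels tells whether I and II came from separate cultures, and the spread between them may be technical. Neither the log base nor the direction of the ratio is stated. Values are called log units, and "low" means low in the table. The name "low H3K4me3" for this stretch holds only if the ratio is IP over input, which could not be checked against marker genes, since no tile is tied to a gene. The median of all valued probes (as deposited, -1.91 in I and -0.90 in II) was subtracted from each replicate, and the mean of both is used below unless a replicate is named. The table pairs no tile with a gene, a coordinate or a sequence, so tiles are placed by ID order only.

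All 9 plates lay below the centre in both replicates. In replicate I their medians ran from -0.80 (TA25) to -0.41 (TA27), against -0.20 to 0.36 in TA12 to TA20 and -0.87 to 0.23 in TA30 to TA38. In replicate II they ran from -0.76 (TA25) to -0.45 (TA27), against -0.47 to 0.33 in TA12 to TA20 and -0.78 to 0.42 in TA30 to TA38. Both replicates thus had the lowest plate of the stretch at TA25, while on the side of TA30 to TA38 plates as low as those of the stretch also occurred. On the other side, TA20 had -0.47 in replicate II, slightly under TA27 and TA29 of the stretch (both -0.45). Ranked by the median of the tile means, all 9 plates fell among the lowest 56 of 226 in sets TA, TB and TC. TA25, at -0.77, was the 13th from the bottom, and TA27, at -0.40, was the 45th. The stretch thus does not hold the lowest plates of the array.

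**Figure D1:**
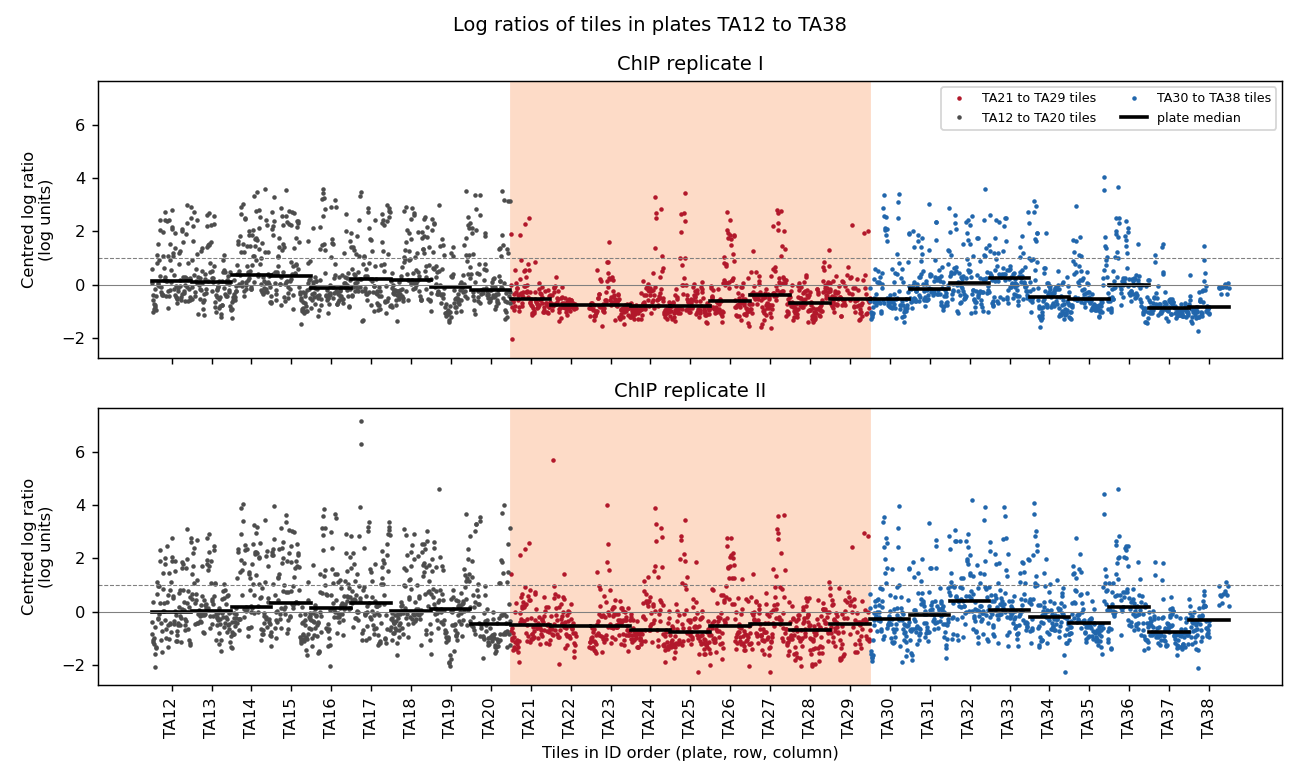
Centred log ratios (log units, vertical axis) of single tiles in ID order (horizontal axis, plates TA12 to TA38), for ChIP replicate I above and II below. Points are tiles, black bars are plate medians, the shaded span is TA21 to TA29 and the dashed line marks 1 log unit. The plate medians of the shaded span lie between -0.80 and -0.41 in replicate I and between -0.76 and -0.45 in II, with a few groups of tiles over 1.

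Over all 785 tiles the median was -0.66 in replicate I and -0.57 in replicate II. It was 0.09 and 0.10 in the 852 tiles of TA12 to TA20, and -0.34 and -0.16 in the 822 tiles of TA30 to TA38. For the mean of the replicates the median was -0.59 in the stretch, 0.05 in TA12 to TA20 and -0.28 in TA30 to TA38. The stretch thus lay 0.63 log units under the plates before it and 0.30 under those after it, and the sign was the same in each replicate. Across the tiles of the stretch, replicate I minus replicate II had an SD of 0.64 log units, which corresponds to an SD of 0.32 for the mean of both. A mean below 0 was found for 625 of the 785 tiles (79.6%), with 49.8% over all valued probes, against 399 tiles of TA12 to TA20 (46.8%) and 503 of TA30 to TA38 (61.2%).

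The gap to the neighbouring plates was not the same along the distribution. At the 10th percentile the stretch stood at -1.16, TA12 to TA20 at -0.79 and TA30 to TA38 at -0.96. At the 75th percentile it stood at -0.16, against 1.16 and 0.36. At the 90th percentile it stood at 0.41, against 2.29 and 1.47. The difference from TA12 to TA20 was thus -0.37 at the 10th percentile and -1.88 at the 90th, and the difference from TA30 to TA38 was -0.19 and -1.06. At the 95th percentile the differences were smaller again, -1.33 from TA12 to TA20 and -0.69 from TA30 to TA38. Among the tiles under 1 log unit the stretch was lower as well. Their median was -0.64 in the stretch (736 tiles), -0.19 in TA12 to TA20 (622) and -0.41 in TA30 to TA38 (705).

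**Figure D2:**
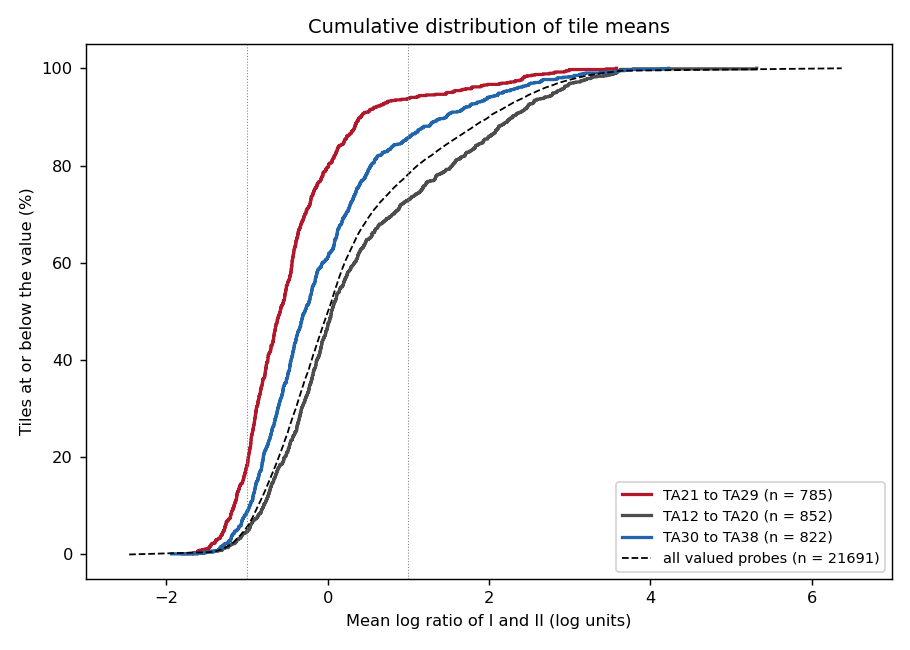
Cumulative share of tiles (percent, vertical axis) at or below a given mean of replicates I and II (log units, horizontal axis), for TA21 to TA29 (785 tiles), TA12 to TA20 (852), TA30 to TA38 (822) and all 21691 valued probes. Dotted lines mark -1 and 1. The curve of the stretch lies left of both flanks from the 10th to the 90th percentile, where it stands at 0.41 against 2.29 and 1.47.

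Of the 785 tiles, 49 had a mean of 1 log unit or more (6.24%, exact 95% interval 4.65 to 8.17%), where the same limit was reached by 21.7% of all valued probes. It was reached by 230 tiles of TA12 to TA20 (27.0%, 24.04 to 30.1%) and 117 of TA30 to TA38 (14.2%, 11.9 to 16.8%). These intervals cover counting error only and take tiles as independent, which neighbouring tiles were not. Both replicates were at least 1 at 40 tiles of the stretch (5.10%), with 18.8% over all valued probes, against 209 tiles (24.5%) of TA12 to TA20 and 98 (11.9%) of TA30 to TA38.

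At the low end, 143 tiles had a mean of -1 or less (18.2%, 15.6 to 21.1%), with 5.67% over all valued probes. When the replicates were centred on their modes, which lay 0.24 (I) and 0.20 (II) under the medians, the share was 7.39%. The counts were 39 tiles (4.58%, 3.27 to 6.20%) in TA12 to TA20 and 72 tiles (8.76%, 6.92 to 10.9%) in TA30 to TA38. Both replicates were at -1 or less at 79 tiles of the stretch (10.1%), with 2.80% over all valued probes. If the ratios were input over IP, these would be the tiles with the most H3K4me3 in the stretch.

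The test of each tile's centred mean against 0, with limma and Benjamini-Hochberg adjustment over all 21691 probes at 0.05, placed 58 tiles above the centre (7.39%) and 380 below it (48.4%), and 347 did not pass. Over all valued probes the test called 27.8% above and 19.7% below. Of the 49 tiles at 1 or more, 48 passed and TA22A06 did not, and all 143 tiles at -1 or less passed. The plates were chosen by the same values, so these counts describe the stretch and nothing is read from them.

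The high tiles of the stretch had a median close to those of the plates around it, but fewer of them reached 3. Among tiles at 1 or more the median was 2.15 log units in the stretch (quartiles 1.57 and 2.48), 2.05 in TA12 to TA20 (1.53 and 2.56) and 1.85 in TA30 to TA38 (1.35 and 2.46). A mean of 2 was reached by 26 of these 49 tiles in the stretch, against 119 of 230 in TA12 to TA20 and 49 of 117 in TA30 to TA38. Of all 785 tiles that was 3.31%, with 10.0% over all valued probes. A mean of 3 was reached by 2 of the 49, against 27 of 230 and 14 of 117. Of all 785 tiles that was 0.255%, with 2.30% over all valued probes. These counts are a description and the difference was not tested. The highest tile, TA24F01, had 3.28 log units in replicate I and 3.88 in II, and the next, TA25C11, had 3.44 and 3.46. The highest tile of TA12 to TA20, TA17B12, had 3.48 and 7.16, and that of TA30 to TA38, TA35G12, had 4.05 and 4.40.

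The 49 tiles formed 24 runs of consecutive IDs, where a well with no value ends a run. Of the runs, 13 held 1 tile, 2 held 2, 4 held 3 and 5 held 4, and none was longer. In TA12 to TA20 the 230 high tiles formed 94 runs, of which 23 held 1 tile and 11 held 4 or more, up to 8. In TA30 to TA38 the 117 high tiles formed 54 runs, of which 22 held 1 tile and 9 held 4 or more, up to 8. Runs of 1 tile thus made up 54.2% of the runs in the stretch, 24.5% in TA12 to TA20 and 40.7% in TA30 to TA38. The tile TA21A01 counts among the 13, although TA20H12, the well before it on the other side of the plate limit, stood at 3.13.

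Runs of 3 or more tiles lay in plates TA23 to TA27, and their 32 tiles made up most of the 49. The run TA24E12 to TA24F03 held the highest tile. It opened with TA24E12 at 1.37 log units in I and 1.73 in II, reached its summit at TA24F01 (3.28 and 3.88), and went on with TA24F02 (2.69 and 3.30) and TA24F03 (2.50 and 2.64). The well before it, TA24E11, stood at -0.07 and 0.01, and the well after it had no value. Both replicates thus ranked the 4 tiles in the same order.

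A second run in the same plate had its summit at its first tile. TA24G03 stood at 2.84 in replicate I and 3.14 in II, TA24G04 at 1.06 and 2.80, and TA24G05 at 0.52 and 1.69. The last of these was under 1 in replicate I. The 11 wells from TA24F04 to TA24G02 separated these runs, and those with a value had means between -1.02 (TA24F06) and 0.38 (TA24F08).

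Plate TA25 held a pair of runs in row C. In the first, TA25C01 stood at 0.98 and 1.97, TA25C02 at 2.66 and 2.68, and TA25C03 at 1.97 and 2.84. In the second, TA25C10 stood at 2.67 and 2.16, TA25C11 at 3.44 and 3.46, and TA25C12 at 2.38 and 1.92. Between them the mean fell to -1.07 at TA25C06, with -0.90 in I and -1.25 in II, so the same row held tiles past both limits. The tile after the second run, TA25D01, had 0.99 and 0.98 and missed the limit of 1 by the least of all.

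Plate TA26 held the densest group of high tiles. From TA26D05 to TA26E10, a span picked after the values were seen, 12 of 16 valued tiles had a mean of at least 1, in 3 runs of 4. The first run opened with its summit, TA26D05, at 2.73 and 2.77, and closed with TA26D08 at 1.76 and 1.66. The second ran from TA26D12 (1.87 and 1.70) over TA26E01 (2.40 and 2.05) to TA26E03 (1.49 and 2.76), with wells of no value on both sides. The third ran from TA26E07 to TA26E10, with the summit of its mean at TA26E09 (1.81 and 1.75). Replicate I was highest at TA26E10 (1.87) and replicate II at TA26E08 (2.20). The first tile of this run stood at 0.23 in I and 2.01 in II, so its start and its summit differed between the replicates.

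Among the 9 runs of 3 or more tiles, the one in plate TA27 had the highest floor, with no mean under 2.38. TA27F06 stood at 2.80 and 3.11, TA27F07 at 2.67 and 2.94, TA27F08 at 2.30 and 3.58, and TA27F09 at 2.03 and 2.73. The wells on either side, TA27F05 and TA27F10, had means of 0.05 and -0.09. Further along the plate, TA27G04 (2.75 and 2.20) and TA27G11 (2.00 and 3.64) each headed a run of 2 tiles. TA26 and TA27, the plates with the highest shares of the 9 and picked here for that, held 12 and 10 of the 49 high tiles.

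The run TA23D04 to TA23D06 rested on replicate II. Its tiles stood at 0.14, 0.83 and 0.43 in replicate I, all under 1, and at 1.88, 3.99 and 2.52 in II. The tiles passed limma, which takes most of the spread from all probes together, and the difference between the replicates at TA23D05, 3.17 log units, was larger than its mean of 2.41. The well TA23D09 in the same row had 1.59 and 1.56, nearly equal in both.

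**Figure D3:**
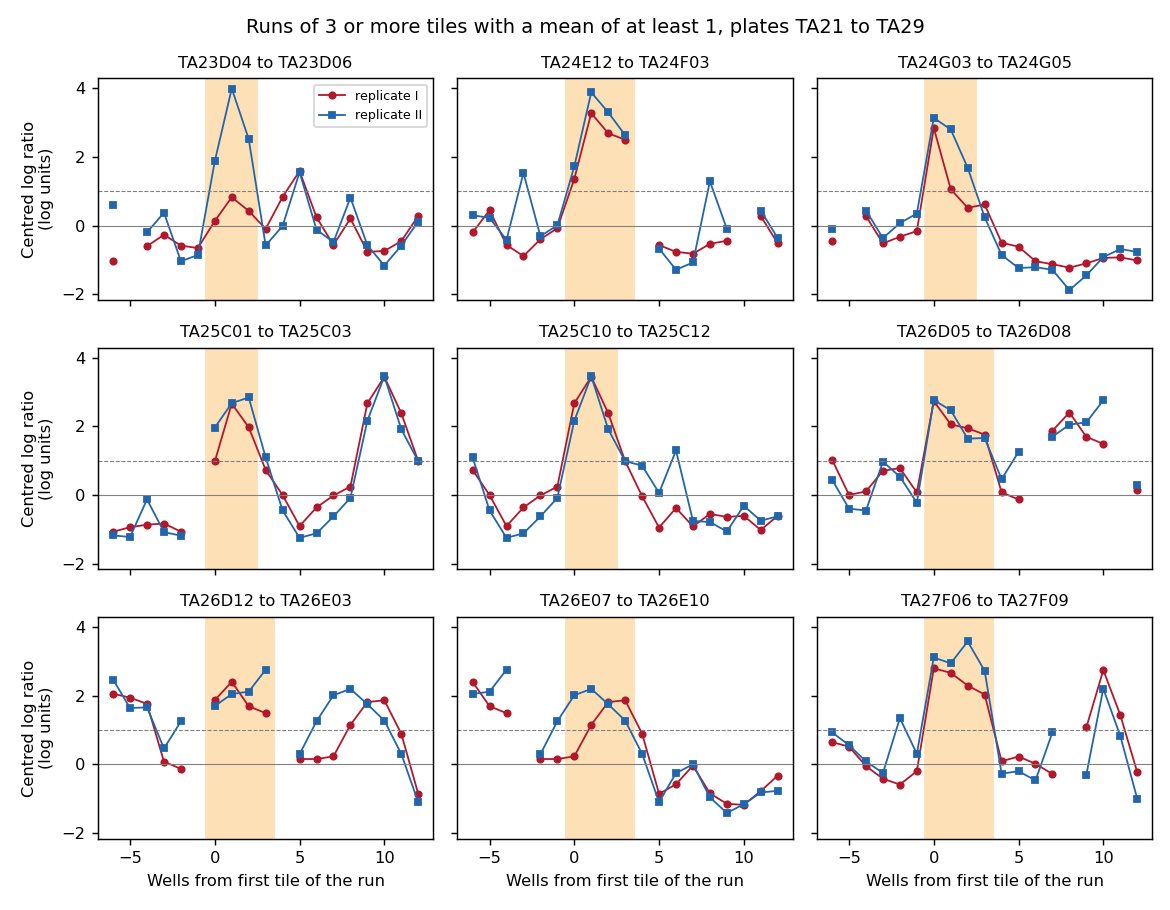
Centred log ratios (log units, vertical axis) of replicates I (circles) and II (squares) around the 9 runs of 3 or more tiles with a mean of at least 1, against the number of wells from the first tile of the run (horizontal axis). Shading covers the run, the dashed line marks 1 log unit, and gaps in the lines are wells with no value. In 5 of the 9 runs both replicates have their summit at the same tile, and TA23D04 to TA23D06 stays under 1 in replicate I.

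Of the 13 single high tiles, 8 lay in TA21, TA28 and TA29. TA21 held 4 of them and no longer run, namely TA21A01 (1.90 and 1.40), TA21B11 (1.84 and 2.12), TA21C11 (2.29 and 2.36) and TA21D08 (2.49 and 2.57). TA29 held 3, namely TA29E07 (2.24 and 2.42), TA29G11 (1.95 and 2.93) and TA29H09 (2.01 and 2.84). Of these, TA29E07 had a well of no value on both sides and TA29G11 on one, so the length of those runs is not known. TA28 had 1 high tile of 96, TA28H10 (1.31 and 1.13). Its share, 1.04%, was the lowest of the 9 plates.

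The longest gap without a tile of 1 or more covered 107 valued tiles, from TA23D10 to TA24E11. In TA12 to TA20 it covered 33 tiles, and in TA30 to TA38 it covered 98, from TA37C11 to TA38C12. Tiles under 1 were also described by their distance from a run, where a lower level than in the run is fixed by how a run ends. One well away from a run they had a median of 0.06 in the stretch (39 tiles), 0.23 in TA12 to TA20 (185) and 0.33 in TA30 to TA38 (106). At a distance of 2 wells it was -0.33 in the stretch (47 tiles), -0.16 in TA12 to TA20 (163) and -0.13 in TA30 to TA38 (88). At 3 wells it was -0.28 in the stretch (39 tiles), -0.14 in TA12 to TA20 (144) and -0.22 in TA30 to TA38 (85). The tiles of the stretch near a run thus lay above the median of -0.64 of its tiles under 1.

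Tiles near each other in ID order were alike in the stretch, as in the plates around it. The correlation of a tile's mean with that of the next was 0.644 over 741 pairs, against 0.599 in TA12 to TA20 (840 pairs) and 0.658 in TA30 to TA38 (806 pairs). At a distance of 3 wells it was 0.309 in the stretch, 0.0621 in TA12 to TA20 and 0.325 in TA30 to TA38. When replicate I of a tile was set against replicate II of the next, it was 0.540 in the stretch. These correlations are across tiles, which share arrays and are not independent, and carry no test.

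**Figure D4:**
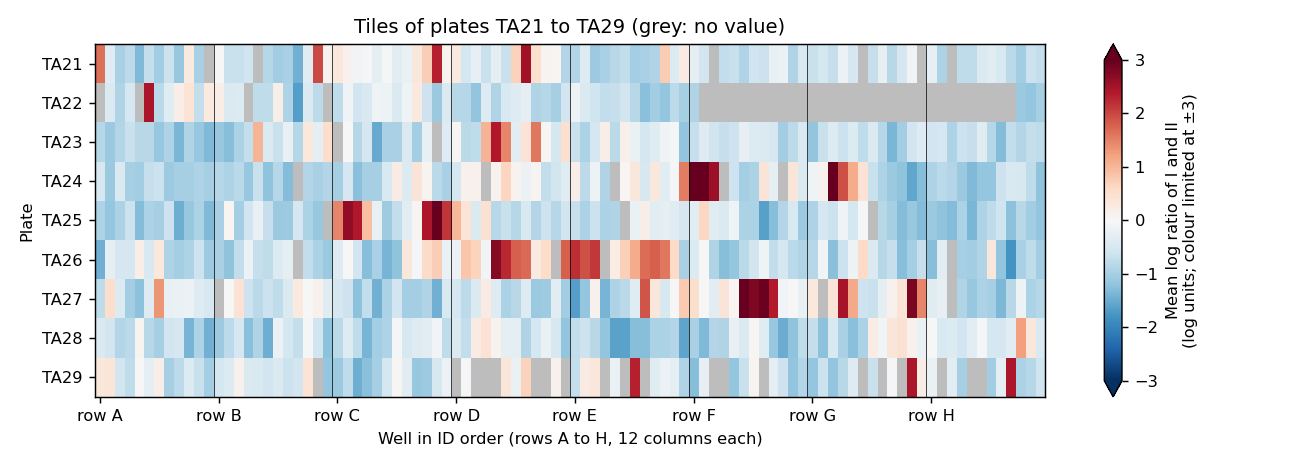
Mean log ratio of replicates I and II (colour, log units, limited at 3 and -3) for each well of plates TA21 to TA29, with plates down the vertical axis and wells in ID order along the horizontal axis. Grey wells have no value. High tiles (red) stand in short groups in TA23 to TA27 and singly in TA21 and TA29, and the long grey bar in TA22 is the run of 32 wells with no value.

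The lowest tiles were spread over most plates. The lowest of all was TA26H09, at -1.56 log units in replicate I and -2.04 in II, followed by TA22B09 with -1.38 and -1.95 and TA27E01 with -1.05 and -2.28. The 10 lowest means ran from -1.80 to -1.48, with 4 of the 10 in plate TA28. The lowest tiles of the neighbouring plates were TA19D09 and TA38B10, where TA19D09 had -1.39 and -1.93 and TA38B10 had -1.75 and -2.12.

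The 143 tiles at -1 or less formed 98 runs, of which 70 held 1 tile. The longest, TA25G10 to TA25H03, held 6 tiles with a mean of -1.22, and its lowest tile, TA25H03, had -1.40 and -1.21. The next, TA28E04 to TA28E08, held 5 tiles with a mean of -1.39. Its lowest tile, TA28E05, had -1.19 and -2.03. The share of tiles at -1 or less ran from 8.89% in TA21 to 24.7% in TA25. Nearest to this limit, TA29H04 (-1.09 and -0.91) fell just inside it and TA24C05 (-1.15 and -0.85) just outside. At the upper limit TA23D04 (0.14 and 1.88) and TA23B05 (mean 1.03) fell just inside and TA25D01 just outside.

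Pearson's correlation between the replicates was 0.762 over the 785 tiles, against 0.880 in TA12 to TA20, 0.868 in TA30 to TA38 and 0.883 over all valued probes. The median size of the difference between them was 0.34 log units in the stretch, 0.36 in TA12 to TA20 and 0.35 in TA30 to TA38. The replicates lay on the same side of the centre at 82.2% of the tiles of the stretch, 79.1% of those of TA12 to TA20 and 82.4% of those of TA30 to TA38. They differed by at least 1 log unit at 78 tiles (9.94%), with 6.32% over all valued probes, 7.04% in TA12 to TA20 and 7.66% in TA30 to TA38. Replicate II was the higher at 61 of the 78, against 34 of 60 in TA12 to TA20, 54 of 63 in TA30 to TA38 and 1023 of 1371 over all valued probes.

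The largest difference was at TA22A06, with -0.82 in replicate I and 5.69 in II. The following tile, TA22A07, had -0.72 and -0.89, and the well before it had no value. The high value thus stood alone in a single replicate, and the mean of 2.44 at this tile does not describe either replicate. TA25F02 (-0.62 and 1.85), TA24E09 (-0.89 and 1.54) and TA22C09 (-0.82 and 1.41) likewise were negative in I and over 1 in II. Of the 49 high tiles, 8 were under 1 in replicate I and 1, TA27G05 (1.44 and 0.83), was under 1 in II. Of the 143 low tiles, 55 were above -1 in replicate I and 9 in II.

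**Figure D5:**
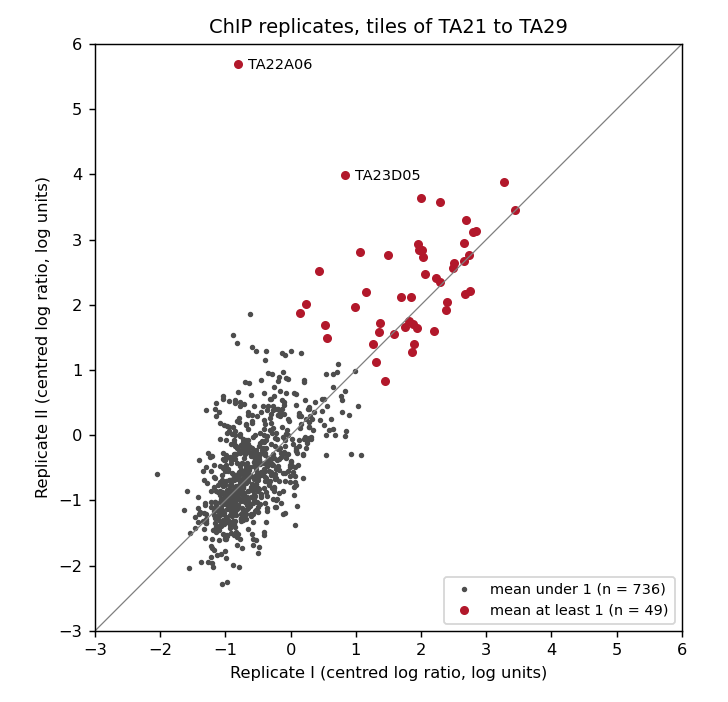
Replicate II against replicate I (centred log ratios, log units) for the 785 tiles of plates TA21 to TA29. Large points are the 49 tiles with a mean of at least 1, small points the other 736, and the line marks equal values. TA22A06 stands apart at -0.82 in I and 5.69 in II, and TA23D05 at 0.83 and 3.99.

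At the first edge the plate limit fell between neighbouring high tiles, TA20H12 and TA21A01. The first 12 valued tiles of TA21 (TA21A01 to TA21B01) had medians of -0.59 in replicate I and -0.87 in II, against -0.28 and -0.25 in the last 12 of TA20 (TA20H01 to TA20H12). The mean was at least 1 at 1 of the 12 in TA21, against 4 of the 12 in TA20. At the limit itself, TA20H12 stood at 3.12 in I and 3.14 in II and TA21A01 after it at 1.90 and 1.40. The tiles before this pair, TA20H08 to TA20H11, had means between -0.97 and -0.07. From TA21A02 to TA21A09 every tile lay under 0 in both replicates. Within TA20 the level was already low in rows D, E and F, whose medians were -0.57, -0.55 and -0.59, and rows G and H held 9 of that plate's 20 high tiles. In TA21, rows C and D had medians of 0.03 and -0.10, and rows E to H, with medians between -0.85 and -0.52, held no high tile.

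At the second edge the lowest tiles lay outside the plate limit. The last 12 valued tiles of TA29 (TA29G09 to TA29H12) had medians of -0.42 in replicate I and -0.32 in II, against -0.93 and -1.26 in the first 12 of TA30 (TA30A01 to TA30A12). The step of the means, stretch minus flank, was 0.80 with 12 tiles on each side and -0.19 with 24, so it changed sign with the window. From TA30A03 to TA30A08 the tiles stood between -1.51 and -1.30. The first high tile after the stretch was TA30C09, with 2.88 and 3.38, while the last one inside was TA29H09, with 2.01 and 2.84. TA30 as a whole had a median of -0.44, close to the -0.47 of TA29, but 16 high tiles against 3 in TA29.

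Wells with no value were another readout that the plate medians did not use. Of the 864 wells of the 9 plates, 79 had none (9.14%, 7.31 to 11.3%), against 12 of 864 (1.39%) in TA12 to TA20, 42 of 864 (4.86%) in TA30 to TA38 and 1.62% in the other 217 plates named TA, TB or TC. For 74 of the 79 the table used here had no row, and 5 (TA24F04, TA24F10, TA25B12, TA25E06 and TA29D04) were listed without a value. The largest gap covered 32 consecutive wells, TA22F02 to TA22H09. The 47 wells outside it lay in 42 gaps, of which 38 were single wells, and 20 of these 47 wells were in TA29. Without TA22 and TA29 the share was 3.42%. This is not comparable with the 4.86% of TA30 to TA38, which keeps the sparse plate TA38. That plate held 34 of the 42 wells there, and no other plate of that flank held more than 7 (TA36). TA28 was the only plate of the 9 with all 96 wells, while 4 plates of TA12 to TA20 and 6 of TA30 to TA38 had all of them. The 80 valued tiles next to a gap had a median of -0.31, against -0.62 in the other 705, and 7 of the 80 were high (8.75%), against 5.96% of the other 705. In TA12 to TA20 the order of the medians was the opposite, with -0.40 in the 22 tiles next to a gap, against 0.06 in the other 830. In TA30 to TA38 it was the same as in the stretch, with 0.29 in 27 tiles against -0.31 in the other 795. The share of high tiles was lower next to a gap in both flanks, 9.09% against 27.5% in TA12 to TA20 and 7.41% against 14.5% in TA30 to TA38.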

How the data were processed

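H3K4me3 ChIP-chip was analysed from the authors' deposited value table, whose values were handled as log2 ratios of IP and input, since the sources used here give no normalisation, log base or direction. No scanner intensities were used, which leaves signal over background unknown, and 2 replicates limit the precision. Of 21800 probes, 21691 had a value. The 4 columns gave 2 replicates, since dye-swap columns were identical. From these values each replicate was centred on its median, and the replicates were averaged. The centred mean was tested with limma 3.58.1 in R 4.3.3 (lmFit and eBayes, two-sided, Benjamini-Hochberg over all probes, prior degrees of freedom 10.5). Exact intervals are Clopper-Pearson. Runs follow ID order, rows A to H. Percentiles and correlations were computed with Python 3.11.15, numpy 2.4.6, pandas 2.3.3 and scipy 1.17.1.

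The members, limits and alternatives were chosen with earlier results of these data known. Named tiles are, in the stretch, the 10 highest and 10 lowest, the ends and summits of runs of 3 or more, the 3 nearest on each side of 1, the 5 with the largest difference between replicates and each plate's extremes, and the extremes of each flank. Other tiles in runs, edges and gaps, the tiles nearest to -1 and the neighbours of these were named after their values were seen.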

Additional observations from a re-analysis of the deposited data

How the results depend on the processing

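No paired analysis was possible because the series holds a single group. The differences from the neighbouring plates kept their sign under all alternatives tried, but the plates had been chosen as low by the same values. A change of centring cannot alter these differences, so those alternatives do not check them. Centring on the mode gave a share of 7.39% at -1 or less and a median of -0.37. Without centring, the shares were 2.29% at 1 or more and 89.8% at -1 or less, the median -1.99, the runs 13, and limma placed 10 tiles above and 660 below 0, as follows from both deposited medians lying under 0. An adjusted p under 0.01 left 246 tiles below. With both replicates required, 10.1% lay at -1 or less. Plates TA20 to TA30 gave 8.75% at 1 or more in 37 runs. Without the sparse plates TA22, TA29 and TA38, wells with no value made up 3.42% in the stretch, and its correlation of replicates was 0.797. Spearman's was 0.631. The step at TA29 to TA30 was -0.19 with 24 wells on each side, where the sign turned. With single replicates, the share at -1 or less was 17.6 to 25.7%, the share at 1 or more 5.48 to 7.64%, the median -0.66 to -0.57, the difference from TA12 to TA20 -0.75 to -0.67, that from TA30 to TA38 -0.41 to -0.32, the runs 22 to 34, the step at TA20 to TA21 -0.61 to -0.30 and that at TA29 to TA30 0.51 to 0.94. With single replicates TA22A06 ranged from -0.82 to 5.69, TA25F02 from -0.62 to 1.85, TA24E09 from -0.89 to 1.54 and TA22C09 from -0.82 to 1.41, each negative in I. For the 61 named tiles, 160 of the alternatives stayed within the spread of the replicates, 19 moved and these 4 turned. Leaving out a replicate always moves a tile's mean by less than that spread, so it could only stay or turn. Centring on the mode raised all tile means by the same amount, so nothing is read from these counts of tiles. For the other results 57 stayed, 19 moved and 1 turned. The 57 include the changes of centring, which could not alter the differences from the neighbouring plates. Shares and correlations stayed if within an interval of the main value, and counts if within a fixed ratio of it. Medians, differences and steps stayed if within the spread of the replicates. Removing well-parity medians and leaving out TA22A06 were alternatives chosen after seeing the data. The first gave 6.24% at 1 or more, and the second gave 6.12% in 23 runs and a correlation of 0.785. The causes were not tested.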

Other observations

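When wells were sorted into 4 classes by the parity of row and column, the class medians of the stretch differed by up to 0.0289 log units in replicate II and 0.0381 in I, against 0.218 and 0.0419 over all valued probes. The 4 single high tiles of TA21 each stood within 0.5 log units of the same value in both replicates, while the highest tile of TA22 and that of TA23 differed by 6.51 and 3.17 log units. Of the 49 high tiles, 35 were higher in replicate II than in I (71.4%), against 2595 of 4714 over all valued probes (55.0%). Of the 143 low tiles, 112 were lower in II (78.3%), against 929 of 1229 over all valued probes (75.6%).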
